A study of Homo sapiens with 14 samples.

Results

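The genes described here were RRAGA and RRAGC (Rag GTPases), LAMTOR1, LAMTOR2, LAMTOR3, LAMTOR4 and LAMTOR5 (the Ragulator complex), and MTOR, RPTOR and MLST8 (core subunits of the kinase complex mTORC1). They were chosen by name. All 10 were listed in both of the authors' deposited tables, among 12202 genes listed in either. RRAGC was chosen because it had changed in opposite directions in the arms, so its fold changes are given as a description, without a test. The other 9 are further subunits of the same machinery. RRAGB and AKT1S1, subunits that were also measured, are outside the 10 and are described further on.

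The cells were teloHAEC, an established line of human aortic endothelial cells immortalised with telomerase, and the 14 libraries fell into 4 groups. The siRNA arm compared 4 libraries of cells transfected with siRNA against CALCRL, which encodes a receptor for adrenomedullin and related peptides, with 4 of cells given scrambled siRNA, lysed after 24 hours. The deletion arm compared 3 libraries of cells that received Cas9 with guides on both sides of an enhancer of CALCRL with 3 of cells that received Cas9 with a guide against HPRT, collected after 2 days. Cells of both groups in the deletion arm had therefore been electroporated and had received active Cas9. The labels name no selection of clones, and they do not say whether replicates came from separate cultures, so the p-values measure only the spread between these samples. Libraries were made from the 3' end of polyadenylated RNA. The authors' deposited tables give 1 log2 fold change per gene and arm and no value for a single library, so whether the libraries of the groups overlapped could not be read from them. Group means below were derived from the deposited mean normalised count and fold change.

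mTORC1 is a protein kinase complex that promotes translation and growth and restrains autophagy when amino acids and growth factors are available. Amino acids act through the Rag GTPases, which work as heterodimers of RagA or RagB with RagC or RagD and carry mTORC1 to the lysosome surface, where the pentameric Ragulator anchors them. At that surface the small GTPase RHEB, which is held in check by the TSC complex, switches the kinase on. In endothelial cells mTORC1 lies downstream of growth factor receptors such as that for VEGF.

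CALCRL itself, the check of both treatments, was lower in both arms of the authors' deposited tables, with log2 fold changes of -1.56 (SE 0.17, adjusted p = 1.9e-17) under siRNA and -1.47 (SE 0.43, adjusted p = 0.00962) with the enhancer deleted. HPRT1, which the control guide targets, had a deletion log2 fold change of -0.09 (SE 0.50) in the authors' deposited table. The median standard error over all genes was 0.17 under siRNA and 0.41 for the deletion, so the deletion values are the less precise. Among the 10 genes the deposited standard errors ran from 0.08 to 0.27 under siRNA and from 0.21 to 0.56 for the deletion. The endothelial label was checked on marker genes, of which 9 of 10 were listed, including CDH5, TIE1, ERG and KDR, while PECAM1 was not. Mean normalised counts of the 9 ran from 42.0 (VWF) to 1873 (TIE1) under siRNA. In the deletion arm they ran from 9.78 (EMCN) to 1188 (TIE1). Of the markers of other cell types, 2 of 5 for smooth muscle, 0 of 5 for fibroblasts and 1 of 5 for blood cells were listed. Among these the smooth muscle marker ACTA2 had the highest means, 225 under siRNA and 182 in the deletion arm, above those of VWF, EMCN and CLDN5. CDH5 (-1.44, SE 0.35, adjusted p = 0.00142) and KDR (-1.05, SE 0.31, adjusted p = 0.00966) were lower in the deletion arm of the authors' deposited table. These 2 of the 9 (22.2%) were called, against 15.8% of all genes in that arm. The other 7 were not called there, 3 of them with values above 0 (VWF 0.54, CLDN5 0.45 and TIE1 0.09), and the median of the 9 was -0.12. In the siRNA arm 0 of the 9 were called, against 3.46% of all genes, with 1 at an unadjusted p under 0.05, against 12%. The part of these markers in the results that follow was not tested. In bulk RNA, fewer cells of a type and less RNA per cell cannot be told apart.

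RRAGC, which encodes RagC, the partner of RagA or RagB in the GTPase heterodimer, was lower than control under siRNA and higher than control after the deletion. Positions are given in GRCh38, starting with RRAGC (ENSG00000116954; chromosome 1, 38838198 to 38859823, minus strand). In the siRNA arm its derived mean was 962 normalised counts in scrambled controls and 441 in cells with siRNA against CALCRL. The authors' deposited table gives -1.13 (SE 0.08) on the log2 scale, or 45.8% of control with a 95% interval from 41.0% to 51.3%. In the deletion arm the derived mean was 751 normalised counts in controls and 1192 after the deletion. On the log2 scale this is 0.67 (SE 0.21) in the authors' deposited table, which is 159% of control with an interval from 119% to 211%. Only 23 of 10891 genes tested in both arms (0.211%) were called in both in opposite directions, and RRAGC was picked from among them. An adjusted p under 0.05 counts as called throughout.

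Of the other 9 genes, 4 had opposite signs in the arms, and these were not called in either arm as deposited. LAMTOR4 and MTOR had the signs of RRAGC, and RRAGA and LAMTOR5 the reverse. RRAGA, which encodes RagA, thus did not share the pattern of signs of RRAGC. RRAGA (ENSG00000155876; chromosome 9, 19049395 to 19050983, plus strand) went from a derived 225 to 284 normalised counts under siRNA and from 360 to 205 after the deletion. The authors' deposited tables put it at 0.33 (SE 0.15, adjusted p = 0.267) under siRNA and -0.81 (SE 0.51, adjusted p = 0.287) in the deletion arm on the log2 scale, neither past the threshold. The deletion standard error of RRAGA was 1.68 times the median of genes with the same mean count, the highest such ratio among the 10. RRAGB, the close relative of RRAGA, was measured at low depth and was at 0.11 (SE 0.48) and -0.56 (SE 0.96) in the authors' deposited tables for siRNA and deletion. The symbol RRAGD was listed in neither of the authors' deposited tables.

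**Figure D1:**
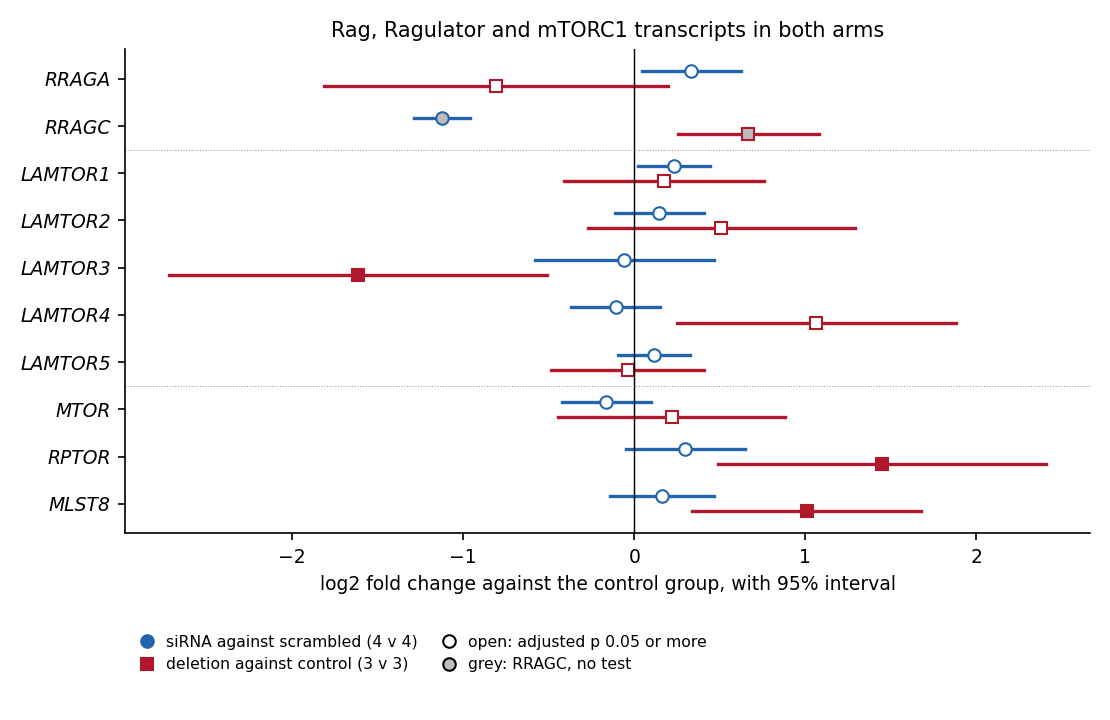
Log2 fold change against the control group (x axis) for the 10 genes (y axis), with circles for the siRNA arm (4 libraries against 4), squares for the deletion arm (3 against 3), bars for 95% intervals filled symbols for an adjusted p under 0.05, and grey symbols for RRAGC, which has no test. The siRNA value of RRAGC is -1.13, and in the deletion arm RPTOR and MLST8 are filled to the right of 0 and LAMTOR3 to its left.

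Among the 10 genes RRAGC alone carried a 7-base word in its 3' UTR, a share (10%) near that of all genes (10.3%). The word GTAACAA had been picked earlier from these same siRNA data, so its presence in genes lower in that arm is no independent support. It was searched on the transcript strand only, in the longest annotated 3' UTR of each gene's coding transcripts. RRAGC carries it once, at position 733 of a 3' UTR of 1355 bases, and the other 9 carry it 0 times. Among all genes with a 3' UTR, 10.3% (1092 of 10638) carry it. Of the 84 mTORC1 pathway genes measured with a 3' UTR, members included, 7 carry it (8.33%). Sites of 3 of the 4 with the lowest siRNA fold changes follow to show the word in its setting, from the GENCODE release 29 transcripts on GRCh38 and read 5′ to 3′ on the transcript strand, with the word in capitals. The RRAGC site is at chr1:38838803-38838830 (minus), the ATP6V0A2 site at chr12:123759169-123759196 (plus) and the RPS6 site at chr9:19376265-19376292 (minus).
RRAGC: catgctcagtGTAACAAagggaattaaa
ATP6V0A2: gtatatttttGTAACAAaatataaatga
RPS6: gattttttgaGTAACAAataaataagat

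Of the 6 carriers other than RRAGC, 2 were called in the siRNA arm, PDPK1, the kinase that activates AKT, at -0.53 (SE 0.13, adjusted p = 0.00148) and RPS6, the ribosomal protein phosphorylated downstream of mTORC1, at -0.44 (SE 0.12, adjusted p = 0.014) in the authors' deposited table. ATP6V0A2, a subunit of the lysosomal proton pump, was at -0.49 (SE 0.16, adjusted p = 0.0571) in the authors' deposited table and missed the threshold. The remaining carriers were C7orf60 (-0.21, SE 0.25), RPS6KB1 (-0.15, SE 0.17) and MITF (0.07, SE 0.48) in the authors' deposited table. Without RRAGC, which was chosen for its values, the carriers ran from -0.53 (PDPK1) to 0.07 (MITF). The 77 pathway genes without the word ran from -0.53 to 1.02, with a median of 0.03, 1 called lower and 1 higher. The word was picked from these same siRNA data, so this contrast is no independent support. Over all genes, 14.2% of carriers and 1.16% of genes without the word were called lower. The part of the word in these values was not tested.

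**Figure D2:**
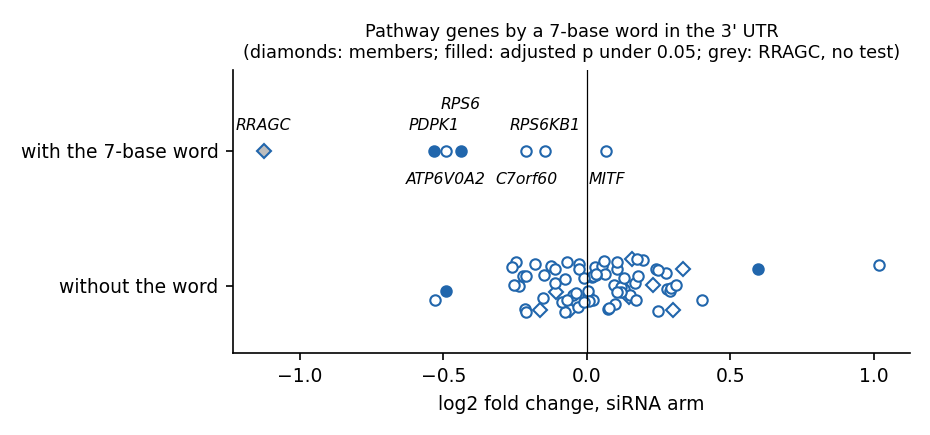
Log2 fold change in the siRNA arm (x axis) for the 84 pathway genes with a 3' UTR, split by whether it holds the 7-base word (y axis), with diamonds for the 10 genes of the report filled symbols for an adjusted p under 0.05, and grey for RRAGC, which has no test. The carriers run from -1.13 (RRAGC) to 0.07 (MITF), and PDPK1 and RPS6 are filled.

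The 5 subunits of Ragulator, the lysosomal scaffold of the Rag GTPases, were not called in the siRNA arm, where their log2 fold changes lay between -0.11 and 0.23. In the deletion arm they spread from -1.61 to 1.06. LAMTOR3, which forms a dimer with LAMTOR2 at the core of the scaffold, was the one called. LAMTOR3 (ENSG00000109270; chromosome 4, 99878336 to 99894490, minus strand) went from a derived 105 to 34.3 normalised counts. The authors' deposited table gives -1.61 (SE 0.56, adjusted p = 0.0335) on the log2 scale, or 32.7% of control with an interval from 15.2% to 70.3%. Under siRNA its derived means were 53.3 and 51.2 normalised counts, at -0.06 (SE 0.27) in the authors' deposited table. LAMTOR2 (ENSG00000116586; chromosome 1, 156054752 to 156058510, plus strand), the dimer partner, was at 0.51 (SE 0.40, adjusted p = 0.406) after the deletion and 0.15 (SE 0.13) under siRNA in the authors' deposited tables.

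LAMTOR4 and LAMTOR5 form the other small dimer of the scaffold, and LAMTOR1 wraps around both dimers and anchors them in the lysosomal membrane. LAMTOR4 (ENSG00000188186; chromosome 7, 100148907 to 100155944, plus strand) went from a derived 246 to 515 normalised counts after the deletion. Its log2 fold change of 1.06 (SE 0.42, adjusted p = 0.0603) in the authors' deposited table missed the threshold. With genes under a mean of 50 normalised counts left out the adjusted p was 0.0483, and with the GC trend described further on removed it was at 0.47 (adjusted p = 0.512). LAMTOR5 (ENSG00000134248; chromosome 1, 110401249 to 110407942, minus strand) was at -0.04 (SE 0.23) after the deletion and 0.12 (SE 0.11) under siRNA in the authors' deposited tables. LAMTOR1 (ENSG00000149357; chromosome 11, 72085895 to 72103387, minus strand) was at 0.17 (SE 0.30) after the deletion, a sign that changed with the GC trend removed. Under siRNA LAMTOR1 was at 0.23 (SE 0.11, adjusted p = 0.325) in the authors' deposited table. Within this complex, then, LAMTOR3 and LAMTOR4 lay at opposite ends in the deletion arm, with intervals from -2.72 to -0.51 and from 0.25 to 1.88.

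Among the mTORC1 subunits, RPTOR and MLST8 rose after the deletion, and MTOR was not called in either arm. RPTOR (ENSG00000141564; chromosome 17, 80544819 to 80966371, plus strand) encodes Raptor, which recruits substrates and binds the Rag GTPases. It went from a derived 42.9 to 117 normalised counts, or 1.45 (SE 0.49, adjusted p = 0.0276) on the log2 scale in the authors' deposited table. This is 273% of control with an interval from 140% to 530%. MLST8 (ENSG00000167965; chromosome 16, 2204248 to 2209416, plus strand), a subunit bound to the kinase domain in both mTOR complexes, went from a derived 89.99 to 181 normalised counts. This is 1.01 (SE 0.34, adjusted p = 0.0282) on the log2 scale in the authors' deposited table, or 2.01-fold, with an interval from 126% to 320% of control. Both calls were lost with the GC trend removed, where RPTOR was at 0.95 (adjusted p = 0.196) and MLST8 at 0.21 (adjusted p = 0.744).

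Under siRNA, RPTOR was at 0.30 (SE 0.18, adjusted p = 0.541) and MLST8 at 0.16 (SE 0.16, adjusted p = 0.821) in the authors' deposited table. MTOR (ENSG00000198793; chromosome 1, 11106535 to 11262507, minus strand), the kinase, was at -0.16 (SE 0.13) under siRNA and 0.22 (SE 0.34) with the deletion in the authors' deposited tables. AKT1S1, which encodes the inhibitory mTORC1 subunit PRAS40, was at 0.02 (SE 0.29) and 0.87 (SE 0.59, adjusted p = 0.317) in the authors' deposited tables for siRNA and deletion. The symbol DEPTOR was listed in neither.

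Counted over the 9 genes other than RRAGC, 0 were called in the siRNA arm by the authors' DESeq2 test, against 3.46% of all genes (1.05% higher and 2.42% lower), and 2 of them (RRAGA and LAMTOR1, both higher) had an unadjusted p under 0.05, against 12% of all genes. Their median log2 fold change was 0.15, against 0.00 over all genes. In the deletion arm 3 of the 9 were called, 2 higher and 1 lower, against 15.8% of all genes (7.4% higher and 8.44% lower). An unadjusted p under 0.05 was given to 4 of the 9, against 29.7% of all genes. Their median was 0.22, against 0.00 over all genes. In each arm 6 of the 9 fold changes were above 0, against 50.6% of all genes under siRNA and 50.3% for the deletion. At an adjusted p under 0.1, 0 of the 9 were called under siRNA, against 4.59% of all genes, and 4 for the deletion, against 22.9%. The 3 deletion calls (RPTOR, MLST8 and LAMTOR3) were lost when the statistics were read against a Student t distribution or divided by their robust SD, settings under which 0 genes of the whole deletion table were called.

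Some of these genes share sequence with a neighbour on the opposite strand, and the sources used here do not say whether counting used the strand. The 3' end of MLST8 overlaps BRICD5, that of LAMTOR4 overlaps C7orf43, and LAMTOR1 lies within LRTOMT in GENCODE release 29. Only overlapping genes that were listed in an arm are named there. RRAGC also overlaps AL139260.2 and LAMTOR5 overlaps LAMTOR5-AS1, on either strand, and MTOR and RPTOR overlap 5 genes each. None of these was listed in either arm. For the deletion, the authors' deposited table gives BRICD5 a mean of 10.3 normalised counts and a log2 fold change of 0.50 (SE 1.14). The same values in the authors' deposited table were 9.2 and 1.71 (SE 1.06) for C7orf43, and 11.2 and -0.69 (SE 1.06) for LRTOMT. MLST8, LAMTOR4 and LAMTOR1, which overlap BRICD5, C7orf43 and LRTOMT, had means of 135, 381 and 1084 normalised counts in that arm. Whether overlap affected the counts of the members was not tested. RRAGA and RRAGB are paralogs, and how reads matching both were counted is not given in the sources used here.

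For the 9 genes, the gap between the arms was tested as the deposited siRNA minus the deposited deletion log2 fold change over its combined SE, read against a normal distribution, and p-values were adjusted over 10891 genes by the Benjamini-Hochberg method. None passed the threshold (0 of 9), against 13.7% of all genes, while 5 of the 9 had an unadjusted p under 0.05, against 28.3% of all genes. The lowest adjusted p was that of LAMTOR4, whose siRNA log2 fold change was lower than its deletion log2 fold change by 1.17 (siRNA minus deletion -1.17, SE 0.44, adjusted p = 0.052). With genes under a mean of 50 normalised counts left out the adjusted p was 0.0422, and with the GC trend removed LAMTOR4 was at -0.59 (adjusted p = 0.404). For LAMTOR3 the difference was 1.56 (SE 0.62, adjusted p = 0.073). It was -1.15 (SE 0.52, adjusted p = 0.119) for RPTOR and -0.85 (SE 0.38, adjusted p = 0.108) for MLST8, and with the GC trend removed these were -0.67 (adjusted p = 0.439) and -0.07 (adjusted p = 0.938). For RRAGA it was 1.14 (SE 0.53, adjusted p = 0.132), the opposite sign to that of RRAGC, whose own values are -1.13 and 0.67. For LAMTOR1, LAMTOR2, LAMTOR5 and MTOR the differences were 0.06, -0.36, 0.16 and -0.38, with 95% intervals from -0.56 to 0.68, -1.19 to 0.46, -0.34 to 0.65 and -1.10 to 0.33. LAMTOR2 changed sign in this difference with the GC trend removed. The arms differ in delivery, control and time as well as in target, and these cannot be told apart.

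The genes nearest to RRAGC in the pair of fold changes were taken from 7367 genes with standard errors under 0.5 in both arms, by Euclidean distance over the 2 arms. They were FAM46A, SERBP1 (an mRNA-binding protein), CCP110 (a cap protein of centrioles), PPIB (a cyclophilin of the endoplasmic reticulum) and UBN2, at distances from 0.13 to 0.31. Their siRNA log2 fold changes ran from -1.16 to -0.84 and their deletion log2 fold changes from 0.48 to 0.79 in the authors' deposited tables. All 5 were called lower under siRNA, and SERBP1 alone was also called higher after the deletion. The 5 were chosen for fold changes close to those of RRAGC, so these calls are no independent support. The word GTAACAA was in the 3' UTR of 4 of the 5, against 58.3% of all genes called lower under siRNA, and both the word and these genes were picked from the same siRNA data.

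**Figure D3:**
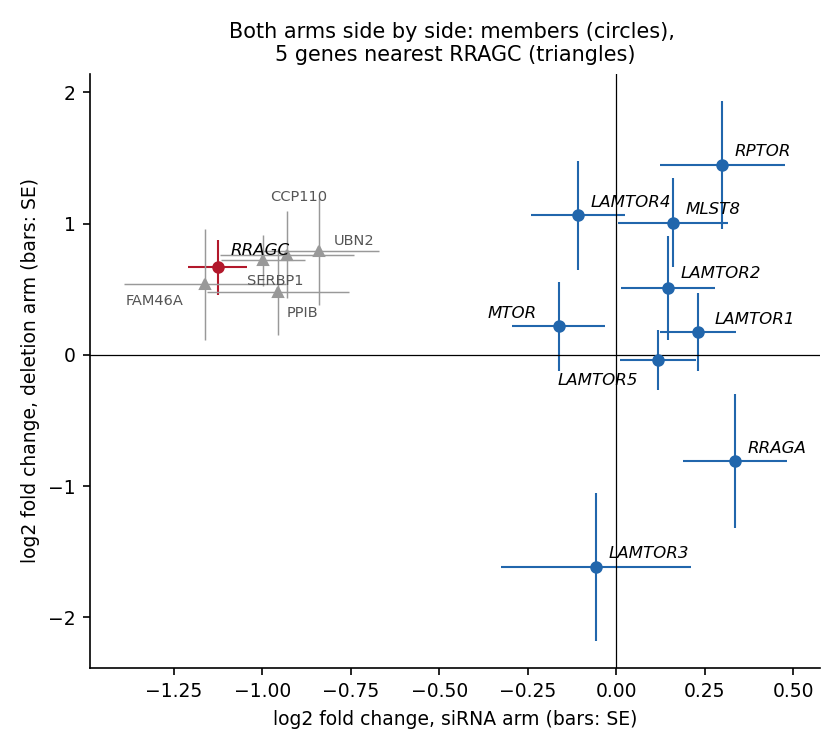
Log2 fold change in the siRNA arm (x axis) against that in the deletion arm (y axis), with standard errors as bars, for the 10 genes (circles, RRAGC in red) and the 5 genes nearest RRAGC (grey triangles). RRAGC lies apart from the other 9, which fall between -0.16 and 0.33 on the siRNA axis and spread from -1.61 to 1.45 on the deletion axis.

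Log2 fold change in the deletion arm rose with GC content at the transcript end across all genes (Spearman 0.308 over 11625 genes that share the same libraries). Over the 10 genes the Pearson correlation was 0.77 and the Spearman correlation 0.76, given as a description of genes measured in the same libraries. LAMTOR3 has the lowest GC content of the 10, 33.6% over the last 500 bases, and MLST8 the highest, 65.2%. RPTOR is at 56.2% and LAMTOR4 at 58.9%, while RRAGC is at 38.0%. Genes in the highest of 10 GC groups had a median of 0.62 in the deletion arm, and genes in the lowest a median of -0.26. With this trend removed, LAMTOR3 was at -1.48 (adjusted p = 0.0638), and the values of RPTOR, MLST8 and LAMTOR4 are given above. None of the 9 genes was then called (0 of 9, against 11.8% of all genes), with 1 at an unadjusted p under 0.05, against 26.4% of all genes. RRAGC was at 0.74, since genes of its GC content had a median below 0. Set against the quartiles of genes in the same GC group, 5 of the 10 lay inside them. Quartiles by definition leave as many genes outside as inside, so this split is that of all genes. RRAGC, RPTOR and LAMTOR4 lay above, and RRAGA and LAMTOR3 below.

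**Figure D4:**
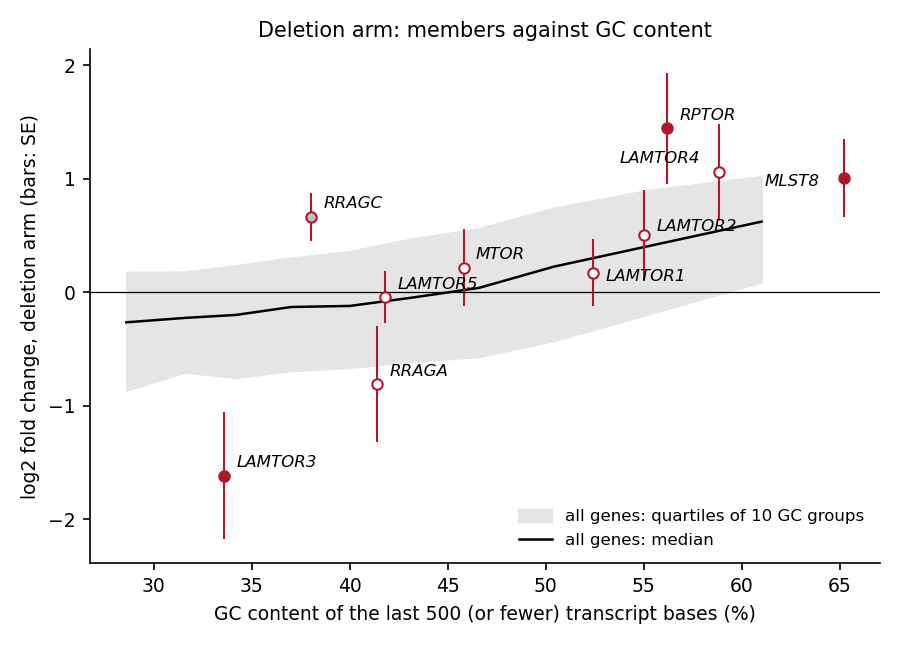
Log2 fold change in the deletion arm with its standard error (y axis) against the GC content of the last 500 or fewer transcript bases (x axis) for the 10 genes, filled at an adjusted p under 0.05 (grey for RRAGC, which has no test), over the median (line) and quartiles (band) of all genes in 10 GC groups. RRAGC, RPTOR and LAMTOR4 lie above the band and RRAGA and LAMTOR3 below it, and MLST8 lies to the right of the last group median, where the band ends. Within each GC group, as many of all genes lie outside the quartiles as inside.

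The rest of the mTORC1 pathway was taken from lists set by role, with 74 genes measured beside the 10. In the siRNA arm 4 of the 74 were called (5.41%, against 3.46% of all genes), 1 higher and 3 lower. In the deletion arm 11 were called (14.9%, against 15.8% of all genes), 5 higher and 6 lower. Both shares lie near those of all genes. With the Student t reference, 0 of these genes were called in either arm, against 0.0444% of all genes under siRNA and 0% for the deletion. The median log2 fold change of the 74 was 0.02 under siRNA and -0.16 after the deletion, against 0.00 over all genes in each arm.

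Among the groups that pass amino acid signals to the Rag GTPases, 2 had a single call and the other two had none. Of the 5 GATOR2 genes, SEH1L, whose product serves both GATOR2 and the nuclear pore, fell after the deletion to -1.61 (SE 0.41, adjusted p = 0.00259) in the authors' deposited table, and the other 4 were not called in either arm. Of the 7 genes of GATOR1, which inactivates RagA, and its anchor KICSTOR, 0 were called in either arm, with 1 and 0 at an unadjusted p under 0.05. Among 6 genes of the sensor list, GATSL3, the older symbol of the arginine sensor CASTOR1, rose after the deletion. Its derived means were 5.83 and 33.5 normalised counts, or 2.53 (SE 0.74, adjusted p = 0.0102) on the log2 scale in the authors' deposited table, and with the GC trend removed it was at 1.95 (adjusted p = 0.0652). SLC38A9, the lysosomal arginine sensor that binds Ragulator, was at 0.25 (SE 0.26) under siRNA and -1.17 (SE 0.54, adjusted p = 0.118) with the deletion in the authors' deposited tables. The 3 genes of the folliculin complex, which activates RagC, gave 0 calls in either arm, and 0 at an unadjusted p under 0.05. Over all genes 3.46% were called under siRNA and 15.8% for the deletion, with 12% and 29.7% at an unadjusted p under 0.05.

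Of the TSC complex and RHEB, TBC1D7, the third subunit of TSC, was called in the deletion arm at -2.23 (SE 0.61, adjusted p = 0.00518) in the authors' deposited table, and TSC1, TSC2, RHEB and RHEBL1 were not called in either arm. Among 11 upstream kinases and regulators, AKT1 fell to -3.16 (SE 0.61, adjusted p = 3.18e-05) and AKT2 rose to 0.84 (SE 0.30, adjusted p = 0.0338) after the deletion in the authors' deposited table. The AMP-activated kinase, which restrains mTORC1, had its catalytic subunit gene PRKAA1 at -1.69 (SE 0.43, adjusted p = 0.00281) and its regulatory subunit gene PRKAG1 at 0.95 (SE 0.35, adjusted p = 0.0441) after the deletion in the authors' deposited table.

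AKT1 and TBC1D7 had siRNA standard errors 4.40 and 2.30 times the median of genes with the same mean count. In all, 214 genes had a ratio above 2, of which 144 were called lower and 1 higher after the deletion. Over all genes 8.44% were called lower and 7.4% higher there. None of the 10 genes of this report was among them (0 of 10), with siRNA ratios from 0.76 to 1.18. With the GC trend removed, AKT2 was at 0.64 (adjusted p = 0.142) and PRKAG1 at 0.83 (adjusted p = 0.0999).

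Downstream of the kinase, 1 of 17 substrates and effectors (5.88%) was called after the deletion, against 15.8% of all genes. It was RPS6KB2, a gene of S6 kinase, at 1.09 (SE 0.40, adjusted p = 0.0477) in the authors' deposited table. It was at 0.23 (adjusted p = 0.772) with the GC trend removed. EIF4EBP1, the translation repressor that mTORC1 inactivates, was at 0.99 (SE 0.37, adjusted p = 0.0504) after the deletion in the authors' deposited table, just short of the threshold. TFEB, the lysosomal transcription factor held in the cytoplasm through RagC, was at 0.12 (SE 0.22) under siRNA and 1.39 (SE 0.67, adjusted p = 0.143) with the deletion in the authors' deposited tables. TFE3, its relative, was at 0.01 (SE 0.14) and 0.28 (SE 0.33).

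Of 15 subunit genes of the V-ATPase, the proton pump that binds Ragulator, 1 was called under siRNA (6.67%, against 3.46% of all genes). After the deletion 3 were called (20%, against 15.8% of all genes). ATP6V1H was lower in both arms, at -0.49 (SE 0.14, adjusted p = 0.0144) under siRNA and -1.83 (SE 0.49, adjusted p = 0.00465) with the deletion in the authors' deposited tables. ATP6V1B2 fell to -1.47 (SE 0.45, adjusted p = 0.0152) and ATP6V1F rose to 0.93 (SE 0.29, adjusted p = 0.0169) after the deletion in the authors' deposited table. With the GC trend removed ATP6V1F was at 0.49 (adjusted p = 0.274). Of the 3 genes measured that are specific to mTORC2, RICTOR was at -0.53 (SE 0.22, adjusted p = 0.214) and MAPKAP1 at 0.28 (SE 0.09, adjusted p = 0.0613) under siRNA in the authors' deposited table. Of these 3 genes 0 were called in either arm, with 2 and 0 at an unadjusted p under 0.05. Over all genes 12% under siRNA and 29.7% for the deletion had such an unadjusted p.

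**Figure D5:**
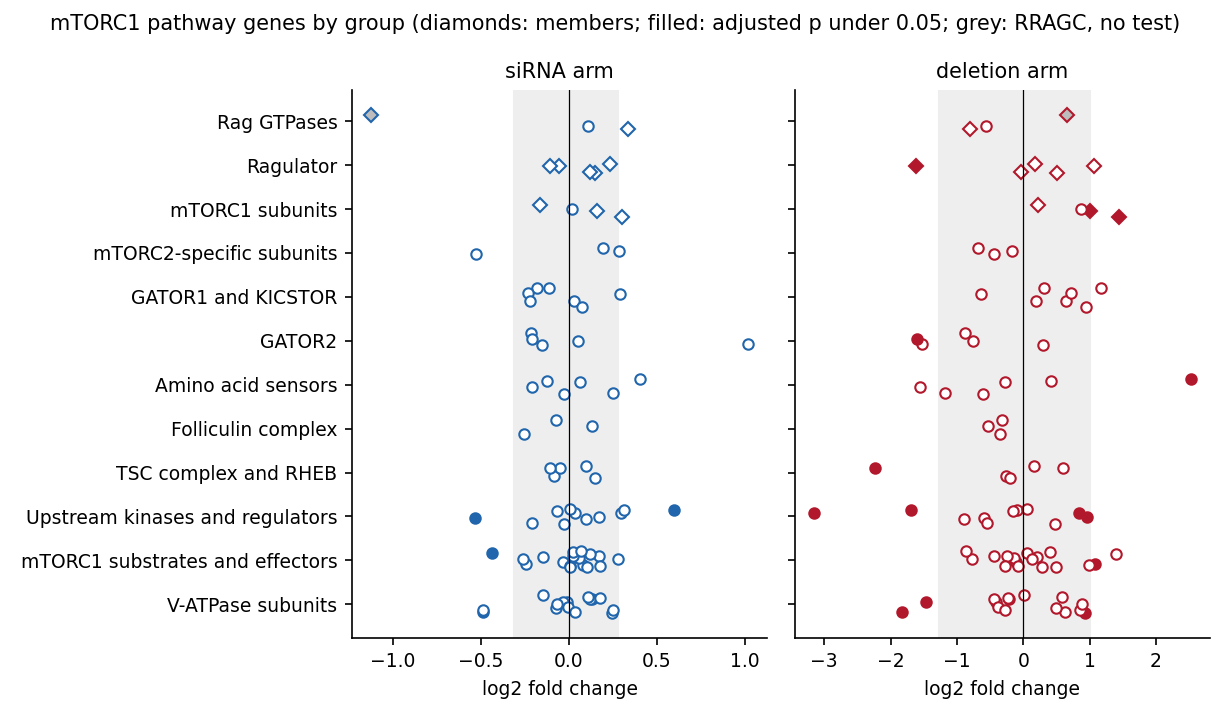
Log2 fold change (x axis) in the siRNA arm (left) and the deletion arm (right) for the mTORC1 pathway genes by group (y axis), with diamonds for the 10 genes of the report, filled symbols for an adjusted p under 0.05, grey symbols for RRAGC, which has no test, and a grey band from the 10th to the 90th percentile of all genes. The siRNA panel holds 4 filled symbols and the deletion panel 14.

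Promoters from RefSeq on GRCh38.p14 (250 bases before to 50 after a gene start) matched 8 of the 10 genes, with RRAGA and MLST8 unmatched. They were searched for CACGTG, the core of the element bound by TFEB and its relatives and by other E-box factors. This word is its own reverse complement, so 1 search covers both strands. The 8 genes have 10 promoters in the table, of which 3 hold it (those of RRAGC, LAMTOR1 and LAMTOR4), as do 7.26% of all 35116 promoters. GAANNTTC, a pair of heat shock element units, was searched because the series concerns an enhancer regulated by heat shock factor. It too is its own reverse complement, and it was found in 1 of the 10 promoters (that of MTOR), against 6.77% of all promoters. The windows around CACGTG, in capitals and read 5′ to 3′ on the gene's strand, are shown to locate the word. They lie at chr1:38859868-38859895 (minus), chr11:72103446-72103473 (minus) and chr7:100148893-100148920 (plus).
RRAGC: ggtgattccggCACGTGacggggcacca
LAMTOR1: tttccccgcatCACGTGcttgcgtgtac
LAMTOR4: gcggctgcaagCACGTGaccggggcctg
The fold changes of these 3 genes were 0.67, 0.17 and 1.06 after the deletion and -1.13, 0.23 and -0.11 under siRNA in the authors' deposited tables. A match describes these letters only.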

How the data were processed

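RNA from 14 teloHAEC libraries was measured by 3' mRNA sequencing. The names of the deposited files cite featureCounts and DESeq2, and per the file headers the columns are those of a DESeq2 comparison. The submitters' processing notes also name edgeR 3.24.3 and hg19, without a role; aligner, annotation, filters and strand setting are not given in the sources used here. The deposited tables give a mean normalised count (a signal averaged over an arm), and, for each gene, a log2 fold change, its standard error, the Wald score, and the raw and adjusted p-value. The Wald statistic equalled fold change over standard error, and the adjusted p-values a Benjamini-Hochberg adjustment. Single-gene p-values are the authors' unless stated otherwise. Depth per library is unknown.

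Differences between arms, 95% intervals, group means and alternatives were computed from these values (Python 3.11.15, scipy 1.17.1, statsmodels 0.14.6). The tests were run on values simulated from a normal distribution with the deposited standard errors. Such a simulation takes those standard errors and the normal reference as right, so it cannot show whether they are right for these libraries. The GC trend was a lowess fit of span 0.3. Positions came from GENCODE release 29 (GRCh38). Members and lists were chosen with earlier results of these data known. Named were all members, called genes of the lists, CALCRL, HPRT1 and the 5 genes nearest RRAGC; other genes were named after their values were seen. The values of 1 called pathway gene and 1 site sequence are not reported here.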

Additional observations from a re-analysis of the deposited data

Results flagged for a closer look

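For 6 genes of the wider pathway the siRNA and deletion log2 fold changes differed by the test of the difference between the arms (siRNA minus deletion, normal reference, Benjamini-Hochberg adjustment over 10891 genes). The difference was 3.19 for AKT1 (SE 0.81, adjusted p = 0.00334), 2.12 for TBC1D7 (SE 0.69, adjusted p = 0.025) and 2.003 for PRKAA1 (SE 0.47, adjusted p = 0.0012). It was 1.43 for ATP6V1B2 (SE 0.48, adjusted p = 0.03) and 1.40 for SEH1L (SE 0.47, adjusted p = 0.0305). It was -1.33 for RPS6KB2 (SE 0.43, adjusted p = 0.0222), a gene higher after the deletion. The 6 came from 74 pathway genes, and 13.7% of all genes differed by this test. With a Student t reference, or with statistics divided by their robust SD, 0 of 10891 genes differed, so all 6 were lost, with 1869 and 447 genes at an unadjusted p under 0.05. Delivery, control and time differ between the arms and cannot be told apart from the target.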

How the results depend on the processing

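No paired analysis was possible because the authors' deposited tables give no values of individual libraries. The replicate block, leaving out each replicate and the edgeR quasi-likelihood test need such values and were not run. In the deletion arm, 3 of the 9 genes other than RRAGC were called as deposited. The count was 0 with a Student t reference, 0 with statistics divided by their robust SD and 0 with the GC trend removed. Under the first and second of these, 0 genes of the whole deletion table were called, with 1646 and 534 at an unadjusted p under 0.05, RRAGC included among those not called. Pathway genes called in the deletion arm fell from 11 to 0 with the Student t reference and to 0 with the robust SD. Those called in the siRNA arm went from 4 to 0 and 2, while all genes called there went from 390 to 5 and 262 of 11261. With genes under a mean of 50 normalised counts left out, 1 of the 9 genes differed between the arms (LAMTOR4), as did 19.1% of all genes, against 0 of the 9 without that filter. With the GC trend removed, LAMTOR1 in the deletion arm was at -0.20 and the difference for LAMTOR2 at 0.077, both with a changed sign. The cause was not tested. The split of all deletion calls moved from 875 higher and 999 lower to 389 and 985 with that trend removed. Over single genes and these alternatives, 235 values kept direction and side of the threshold, 44 lost it, 2 gained it and 2 changed sign. The 235 include many values not called as deposited, which had no call to lose, so they do not show how well calls held.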
